A study of Mus musculus with 4 samples.

Results

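Zinc finger protein genes with the mouse symbol Zfp and a number form one of the largest families of DNA-binding proteins. The 236 genes described here were chosen by name and by level. Their symbol is Zfp followed by a number, their row is annotated as protein coding, and the highest of their 4 FPKM values (fragments per kilobase of transcript, scaled to the depth of the library) is at least 1. They are 236 of the 55385 rows of the deposited table. The table holds 376 Zfp rows, of which 367 are protein coding and 9 are not. The other 131 protein-coding Zfp genes stayed under FPKM 1 in all 4 libraries, and 29 of these had a count of 0 in all 4.

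The libraries come from GC-1 cells, an immortalised mouse line described as spermatogonia, the germ cells that start sperm formation. The cells received either a MYC control plasmid or a MYC-TET1 plasmid that overexpresses TET1, by lipid transfection, and RNA was taken after 24 h or 36 h. The labels call the control cells untreated, although the control also carries a plasmid. There is 1 library for each of the 4 conditions (MYC 24 h, MYC-TET1 24 h, MYC 36 h and MYC-TET1 36 h), so there are no replicates, no value has a standard deviation, and every difference below is one between 2 libraries and was not tested. Within a library, a smaller number of cells that express a gene and less of its RNA per cell cannot be told apart, and the share of cells that took up a plasmid is part of this.

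Each library had 60611877 to 72547105 counts in total. Tet1, looked at first to check the labels, stood at FPKM 0.0526 in the MYC library and 40.2 in the MYC-TET1 library of 24 h, and at 0.0563 and 19.6 in those of 36 h. Of 18 germ cell markers, 2 reached FPKM 1 (Uchl1 and Etv5), and 10 had a count of 0 in every library, among them Dazl, Zbtb16 and Sall4. By contrast, 6 of 8 peritubular and fibroblast markers reached FPKM 1, with Col1a1 at 209 to 229 and Vim at 198 to 234, so the defining germ cell markers were largely absent from cells labelled spermatogenic. Markers of Sertoli cells reached FPKM 1 in 3 of 8 cases (Sox9, Gata4 and Wt1), of macrophages in 1 of 5 (Cd68), of Leydig cells in 0 of 6 and of endothelial cells in 0 of 4. Wt1 moved with 1 library, at FPKM 25.6 in MYC 36 h against 13.2 to 14.0 elsewhere, and its part in the differences of that library was not tested.

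As background, a C2H2 zinc finger is a short fold in which a pair of cysteines and a pair of histidines hold a zinc ion, and arrays of such fingers read DNA sequence. Many Zfp proteins also carry a KRAB domain, which recruits the co-repressor TRIM28 (also called KAP1) and the histone methyltransferase SETDB1, and these silence retroelements and hold DNA methylation at imprinted genes. TET1 oxidises methylated cytosine in CG dinucleotides and so can lead to loss of methylation. Many Zfp genes lie in arrays of recent duplicates whose exons are alike, and reads from such exons can be assigned to more than one gene.

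Before the values, the sequence upstream of the genes that moved the same way at both times is shown, because TET1 acts on CG dinucleotides. The RefSeq promoter table (build GRCm38.p6) had an entry for Zfp184, Zfp46 and Zfp966. It had none for Zfp7. Each sequence below is the 250 bases before the RefSeq start on the strand of the gene, with every CG in capitals. CG reads the same on both strands and is the only motif searched.
Zfp184 (chr13:21944844-21945093, plus strand): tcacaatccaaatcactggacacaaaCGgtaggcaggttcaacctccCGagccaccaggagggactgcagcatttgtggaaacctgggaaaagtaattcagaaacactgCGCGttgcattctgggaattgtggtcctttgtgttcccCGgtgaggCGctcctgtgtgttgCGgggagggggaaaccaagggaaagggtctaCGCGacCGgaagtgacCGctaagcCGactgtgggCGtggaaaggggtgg
Zfp46 (chr4:136284426-136284675, plus strand): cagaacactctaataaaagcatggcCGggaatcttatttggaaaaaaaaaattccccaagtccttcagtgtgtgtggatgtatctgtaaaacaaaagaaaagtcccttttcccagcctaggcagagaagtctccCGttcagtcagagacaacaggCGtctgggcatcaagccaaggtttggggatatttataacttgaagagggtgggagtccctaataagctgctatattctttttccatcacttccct
Zfp966 (chr2:175931101-175931350, minus strand): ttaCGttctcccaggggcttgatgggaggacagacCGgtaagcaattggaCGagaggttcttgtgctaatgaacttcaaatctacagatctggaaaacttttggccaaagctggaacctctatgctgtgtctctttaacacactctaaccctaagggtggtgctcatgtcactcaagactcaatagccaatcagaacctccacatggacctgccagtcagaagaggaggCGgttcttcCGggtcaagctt

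Zfp184 had 13 CG in this window, Zfp966 had 5 and Zfp46 had 3. Of 27025 promoters of the same length, 1 per gene, 91.7% held at least 1 CG, and 70.3%, 49.4% and 37.9% held as few as these 3 genes or fewer. The median was 12 CG over the 195 Zfp genes of the set that matched an entry and 17 over 8035 other protein-coding genes past the same FPKM limit. It was 8 over 106 Zfp genes under the limit and 6 over all promoters. Zfp genes that reached FPKM 1 thus had fewer CG than other genes that reached it and more than Zfp genes that did not. No methylation was measured in these files.

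The second set of sequences shows how alike Zfp genes of 1 chromosome can be. Zfp973 and Zfp965, both on chromosome 2, were identical over all 954 aligned bases of their coding sequences in GENCODE M21 (GRCm38). A 90-base stretch is given for each, from coding base 454 to base 543, and the capitals mark the codons of the linker that joins one finger to the next.
Zfp973: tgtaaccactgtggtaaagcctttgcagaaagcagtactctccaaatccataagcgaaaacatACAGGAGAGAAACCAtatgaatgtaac
Zfp965: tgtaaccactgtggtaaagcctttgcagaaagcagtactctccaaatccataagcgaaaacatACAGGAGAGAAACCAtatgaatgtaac

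A read from this stretch carries nothing that tells these 2 genes apart. How the authors' counting treated such reads is not given in the sources used here. To put a value on this, the exons of each gene were cut into all words of 31 bases (31-mers), and the share of words also found in another gene was computed. The median share was 3.63% over the Zfp genes and 1.75% over other protein-coding genes. It was 50% or more in 18 Zfp genes, or 7.63%, against 4.11% of other genes.

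Most Zfp transcripts were present at low levels. Of the protein-coding Zfp genes, 64.3% reached FPKM 1, against 47.3% of all protein-coding rows. The median of the mean FPKM over the 4 libraries was 2.63 for the Zfp genes, with quartiles of 1.55 and 4.87, against 7.92 for the 10080 other protein-coding genes past the same limit. The summed FPKM of all 236 genes was 1036 in MYC 24 h, 1004 in MYC-TET1 24 h, 1061 in MYC 36 h and 1004 in MYC-TET1 36 h. The family as a whole therefore held 0.542% to 0.569% of all counts in every library, with the MYC library higher than the MYC-TET1 library at each time. The limit itself was passed narrowly by Zfp629 (highest FPKM 1.005), Zfp446 (1.03) and Zfp949 (1.045), and missed narrowly by Zfp653 (0.997), Zfp799 (0.992) and Zfp85 (0.985). The limit was reached in all 4 libraries by 199 genes and in 1 library only by 10 genes. A gene that passed in 1 library only had to be lower in the others, and the same holds for the other protein-coding genes compared.

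The 10 most abundant members had levels that stayed within 2-fold in all 4 comparisons. Zfp706, a small protein that restrains pluripotent identity in embryonic stem cells, led with FPKM 48.4, 47.8, 53.5 and 50.9 in MYC 24 h, MYC-TET1 24 h, MYC 36 h and MYC-TET1 36 h. All values per gene below are given in this order. Zfp598, a ubiquitin ligase that detects collided ribosomes, stood at FPKM 25.3, 25.4, 26.7 and 26.1. Zfp91, a ubiquitin ligase of NF-kappaB signalling, stood at FPKM 25.03, 24.5, 22.2 and 21.1. Zfp207, which binds microtubules and the spindle checkpoint protein BUB3, had FPKM 20.8, 21.5, 25.1 and 23.4. Zfp106, an RNA-binding protein needed by motor neurons, had FPKM 20.7, 22.0, 23.0 and 21.9. For these 5 genes all 4 libraries lay close together. The other 5 of the 10 most abundant genes were Zfp428, Zfp830, Zfp513, Zfp281 and Zfp703, with mean FPKM from 14.6 to 16.0. Of the 22 genes with a mean FPKM of 10 or more, 0 differed at least 2-fold in any comparison. Other protein-coding genes at such levels rarely did either, in 0.719% to 2.198% of cases by comparison and FPKM bin, so nothing particular to the Zfp genes is read from this.

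The first question was whether Zfp genes differed between the plasmids more than other genes did. Ratios were taken as log2 of (FPKM + 0.1) in one library over the other, a scale that understates the change of low genes, and a difference of 2-fold or more, the fold the study used, was counted. At 36 h, 5 Zfp genes were at least 2-fold higher and 10 at least 2-fold lower in MYC-TET1 than in MYC, together 6.36% of the 236. Over the 10316 protein-coding genes past the FPKM limit, 0.96% were 2-fold higher and 0.863% were 2-fold lower, and over all 12254 genes of any type 4.12% passed 2-fold either way. At 24 h, 5 Zfp genes were higher and 5 lower, together 4.24%, while the background was 0.843% higher, 0.872% lower and 3.5% of all genes either way.

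Similar numbers were seen between libraries that carried the same plasmid. From 24 h to 36 h in MYC, 10 Zfp genes were higher and 5 lower, with a background of 1.11% higher, 1.7% lower and 5.04% of all genes either way. In MYC-TET1, 5 were higher and 7 lower, with a background of 0.998% higher, 1.21% lower and 4.15% of all genes either way. The share of Zfp genes past 2-fold was thus 6.36% between the plasmids at 36 h and also 6.36% between the MYC libraries. These comparisons share libraries. In all, 24 Zfp genes, or 10.2%, passed 2-fold in at least 1 of the 4 comparisons, against 4.88% of all protein-coding genes past the limit.

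**Figure D1:**
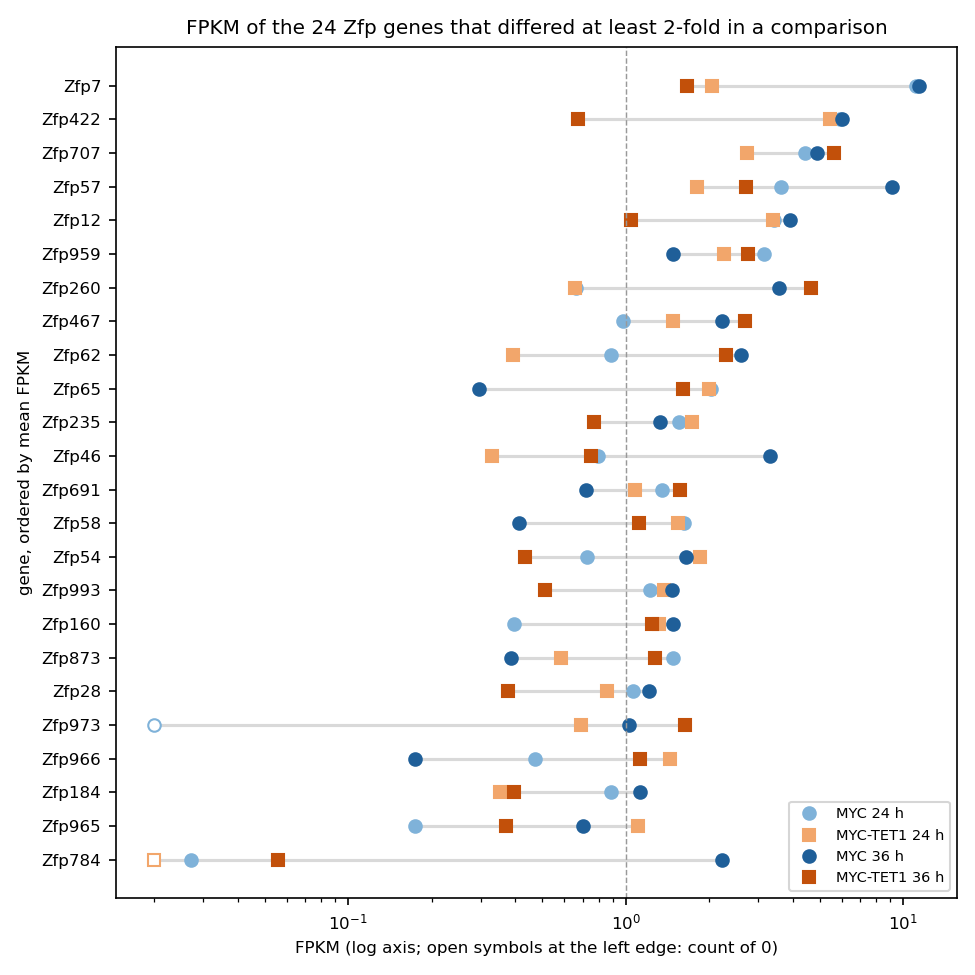
FPKM on a log axis of the 24 Zfp genes that differed at least 2-fold in at least 1 comparison, 1 row per gene ordered by mean FPKM and 1 symbol per library (circles for MYC, squares for MYC-TET1, light for 24 h, dark for 36 h). In Zfp7 the 2 MYC libraries (11.1 and 11.4) lie together far from the 2 MYC-TET1 libraries (2.05 and 1.67). Zfp184 also separates by plasmid, by less and at lower levels. In 13 of the 24 rows 1 library stands at least 2-fold apart from all others. Open symbols are counts of 0 and the dashed line is FPKM 1.

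Because Zfp genes were present at lower levels than other genes, they were set against other protein-coding genes within 6 bins of mean FPKM, with the bins weighted by the number of Zfp genes in each. On this footing the share past 2-fold for other genes was 2.66% at 36 h and 2.5% at 24 h, against 6.36% and 4.24% for Zfp genes. Between the times it was 3.9% against 6.36% in MYC and 3.02% against 5.08% in MYC-TET1. The typical gene differed less. With the bins weighted in the same way, the median absolute log2 ratio was 0.17 for Zfp genes and 0.14 for other genes at 36 h, 0.14 and 0.13 at 24 h, 0.19 and 0.17 between the MYC libraries, and 0.16 and 0.16 between the MYC-TET1 libraries. Taken directly over the 236 Zfp genes, without bins, the medians were 0.157, 0.147, 0.174 and 0.143 in the same order.

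The contrast was largest in the lowest bins. Among genes with a mean FPKM under 1, 5 of 17 Zfp genes passed 2-fold at 36 h, or 29.4%, against 12.5% of 289 other genes. Since every gene kept has a highest FPKM of at least 1, the limit itself favours large ratios in this bin. This holds for the Zfp genes and the other genes alike. From FPKM 1 to 2 it was 6 of 65 Zfp genes, or 9.23%, against 2.51% of 1115 other genes. From FPKM 2 to 5 the shares were 3.12% of 96 and 1.91% of 2257. At 24 h this last bin went the other way, with 0 of 96 Zfp genes against 1.99% of other genes. With the 236 genes split at a mean FPKM of 2, a limit chosen after the values were seen, 17 of 82 genes under it passed 2-fold in any comparison, or 20.7%, against 11.97% of other genes. Of the 154 genes at or above it, 7 did, or 4.55%, against 3.58% of other genes. At a mean FPKM of 5 or more the difference between the medians turned, to -0.00164 at 36 h. With a pseudocount of 1 the 2-fold counts of Zfp genes were 7 at 36 h and 1 at 24 h. The share of other genes past 2-fold at that pseudocount is not given, so no smaller excess is read from these counts.

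**Figure D2:**
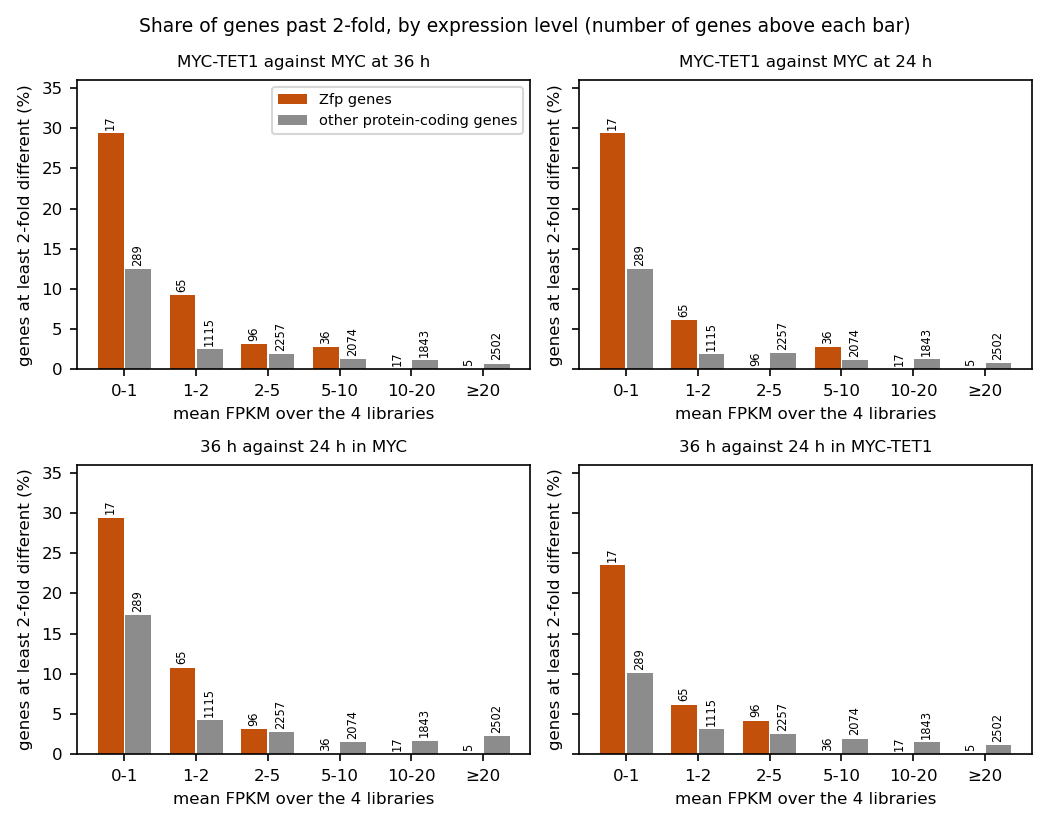
Share of genes at least 2-fold different (y axis, percent) by mean FPKM over the 4 libraries (x axis), for Zfp genes (orange) and other protein-coding genes (grey), 1 panel per comparison, with the number of genes above each bar. The bars of Zfp genes exceed those of other genes in the bins under FPKM 2 in all 4 panels, and above FPKM 10 none of the 17 and 5 Zfp genes passed 2-fold.

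The balance of directions between the plasmids leaned slightly to lower values. At 36 h the log2 ratio was below 0 in 134 of 236 Zfp genes, or 56.8%, with a median of -0.05, against 49.0% of other protein-coding genes with a median of 0.00. At 24 h it was below 0 in 137 genes, or 58.1%, with a median of -0.02, against 51.6% of other genes. The other genes were not matched by level here, and the part of level in this lean was not tested. Within 1.5-fold of no difference lay 89.0% of Zfp genes at 36 h and 91.5% at 24 h. For other protein-coding genes, again not matched by level, it was 95.4% and 95.8%.

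The plasmid comparisons at 24 h and 36 h share no library, so a gene that moved the same way at both was looked for. Of the Zfp genes, 3 were at least 2-fold lower in MYC-TET1 at both times, against 0.165% of protein-coding genes (17 genes, these 3 included). Of the 3, Zfp46 and Zfp184 reached FPKM 1 in MYC 36 h alone, so the limit that chose them also favoured a fall at 36 h. Only 1, Zfp966, was at least 2-fold higher at both, against 0.136% (14 genes), and it reached FPKM 1 in the MYC-TET1 libraries alone. A further 2 were 2-fold different in opposite directions, against 0.31% (32 genes). With so few genes in each class, these shares rest on single genes, and with a pseudocount of 1 in place of 0.1 only Zfp7 remained past 2-fold at both times.

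Zfp7, a KRAB zinc finger protein with 16 fingers by the pattern search, gave the clearest separation. It lies at chr15:76879259-76892395 on the plus strand. FPKM of 11.1 in MYC 24 h, 2.05 in MYC-TET1 24 h, 11.4 in MYC 36 h and 1.67 in MYC-TET1 36 h came from 4810, 951, 4444 and 785 counts. Both MYC values were far above both MYC-TET1 values, and the values of each plasmid were close to each other. The log2 ratio was -2.39 at 24 h and -2.70 at 36 h. The ratio of its shares of all counts gave -2.44 (exact 95% interval -2.54 to -2.34) and -2.76 (-2.87 to -2.65) on the log2 scale. These intervals, here and below, treat each read as an independent molecule, which reads without molecular identifiers need not be. They cover counting error at most, and not the variation between libraries. Ranked by the smaller of the falls at the 2 times, 2 protein-coding genes were above Zfp7. Zfp7 shares 20.5% of its 31-mers with other genes, mainly with Gm49527, which overlaps it on the same strand and had a count of 0 in all 4 libraries.

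Zfp46 and Zfp184 were also lower in MYC-TET1 at both times, at much lower levels. Zfp46 (chr4:136284683-136293942, plus strand), a KRAB protein with 12 fingers, had FPKM 0.795, 0.331, 3.33 and 0.752 from 309, 139, 1164 and 319 counts. Both MYC values were above both MYC-TET1 values, but MYC 24 h exceeded MYC-TET1 36 h only slightly, and MYC 36 h stood apart from the other 3. The log2 ratio was -1.06 at 24 h and -2.01 at 36 h. Zfp184 (chr13:21945094-21960603, plus strand), with 19 fingers, had FPKM 0.884, 0.352, 1.13 and 0.398 from 233, 101, 266 and 115 counts. Both MYC values were above both MYC-TET1 values, with log2 ratios of -1.12 and -1.30. Its count ratio was -1.30 (95% interval -1.66 to -0.96) at 24 h and -1.47 (-1.80 to -1.15) at 36 h on the log2 scale. Both genes share little sequence, 0.761% of 31-mers for Zfp46 and 1.402% for Zfp184.

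Zfp966 was the gene that was higher at both times. It lies at chr2:175918881-175931100 on the minus strand, in a run of like genes, and shares 93.9% of its 31-mers with other genes, mainly Zfp968. Its FPKM was 0.471, 1.44, 0.175 and 1.12 from 105, 344, 36 and 272 counts. Both MYC-TET1 values were above both MYC values, with log2 ratios of 1.43 and 2.16. Of its relatives, Zfp968 had 21, 0, 31 and 39 counts and Zfp969 had 324, 291, 359 and 311. The part of shared sequence in the ratio of Zfp966 was not tested.

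Zfp57, which with TRIM28 keeps methylation at imprinted genes, was just under 2-fold lower at 24 h on the scale of FPKM + 0.1. It is at chr17:37001163-37010635 on the plus strand and shares 0% of its 31-mers with any other gene. Its FPKM was 3.63, 1.81, 9.13 and 2.72 from 1026, 550, 2322 and 837 counts. MYC was above MYC-TET1 at each time, but MYC 36 h was also 1.31 above MYC 24 h on the log2 scale. The log2 ratio between the plasmids was -0.97 at 24 h and -1.71 at 36 h, and the count ratio at 24 h was -0.997 (95% interval -1.15 to -0.85). With a pseudocount of 0.01, Zfp57 and Zfp784 were also 2-fold lower at both times, which made 6 genes the same way at both times in place of 4.

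Zfp54 and Zfp873 took opposite directions at the 2 times. Zfp54, in an array on chromosome 17, had FPKM 0.725, 1.86, 1.65 and 0.432 from 154, 420, 313 and 100 counts, with log2 ratios of 1.25 at 24 h and -1.71 at 36 h. Zfp873 on chromosome 10 had FPKM 1.49, 0.585, 0.385 and 1.28 from 353, 150, 85 and 332 counts, with log2 ratios of -1.21 and 1.51. In neither gene did the plasmid groups separate, because each plasmid had 1 high and 1 low library. They share 9.74% and 7.49% of their 31-mers with other genes.

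**Figure D3:**
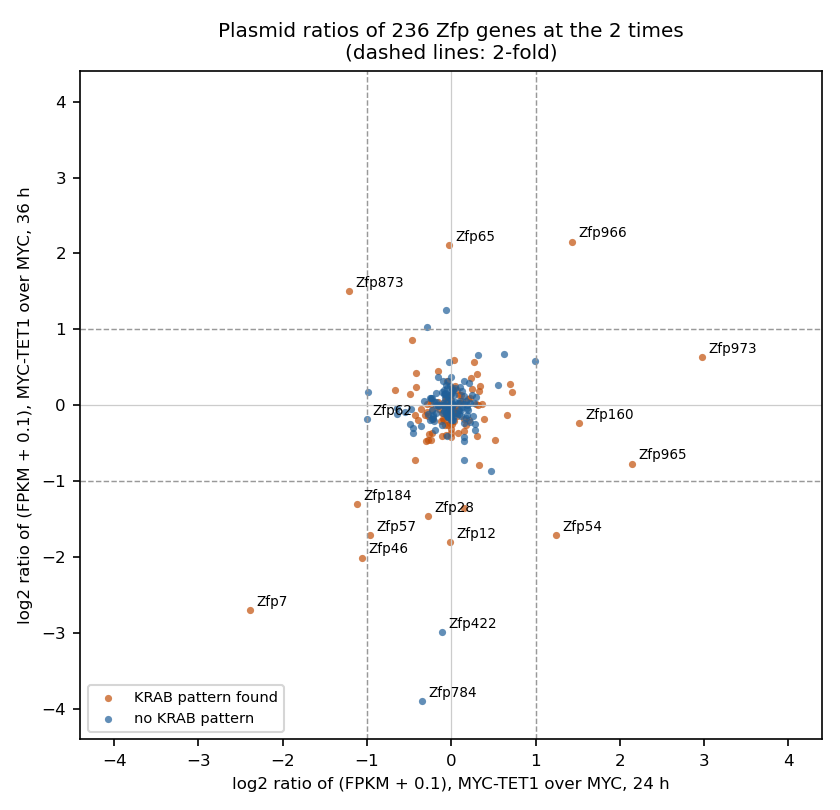
Log2 ratio of (FPKM + 0.1), MYC-TET1 over MYC, at 24 h (x axis) and 36 h (y axis) for the 236 Zfp genes, coloured by whether a KRAB pattern was found, with dashed lines at 2-fold. Most genes lie near the origin, Zfp7 lies at the lower left with -2.39 and -2.70, and Zfp422, Zfp784, Zfp973 and Zfp965 lie near an axis, apart at 1 time only or mainly.

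Over the 236 genes, Pearson's r between the 24 h and the 36 h log2 ratios was 0.23, and 0.14 without Zfp7. Over other protein-coding genes it was 0.01. These are descriptions across genes, which are not independent, and the points share sequence and level.

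Many of the large differences were those of 1 library. In 13 Zfp genes, 1 library differed from each of the 3 others by 2-fold or more in the same direction, against 1.64% of protein-coding genes. MYC 36 h stood above the others in 3 genes and below them in 3, MYC-TET1 36 h stood below in 4, MYC 24 h below in 2 and MYC-TET1 24 h below in 1. Zfp784 was the farthest apart, with 5, 0, 322 and 10 counts and FPKM 2.23 in MYC 36 h against 0.0557 in MYC-TET1 36 h. Its log2 ratio was -3.90 at 36 h and 4.19 between the MYC libraries. It reached FPKM 1 in MYC 36 h alone, so the limit that chose it also favoured a difference of that library. It shares 94.8% of its 31-mers with Zfp865, which overlaps it on the other strand and had 1418, 1868, 1579 and 1496 counts. The library kit does not mark strand, so reads from the overlap cannot be told apart, and what part this played was not tested.

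Zfp422 and Zfp12 were low in MYC-TET1 36 h alone. Zfp422, which has no KRAB pattern, had FPKM 5.92, 5.46, 6.04 and 0.674 from 1596, 1578, 1468 and 198 counts, and a log2 ratio of -2.99 at 36 h against -0.11 at 24 h. It shares 29.4% of its 31-mers, mainly with Zfp955b, whose counts were 1359, 1486, 1202 and 1601. Zfp12 had FPKM 3.43, 3.40, 3.92 and 1.05, and a log2 ratio of -1.81 at 36 h against -0.01 at 24 h. It shares 3.08%. In both genes the other 3 libraries were close together.

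Zfp65 and Zfp58, in the same run on chromosome 13, were low in MYC 36 h alone. Zfp65 had FPKM 2.04 in MYC 24 h, 2 in MYC-TET1 24 h, 0.296 in MYC 36 h and 1.61 in MYC-TET1 36 h, and Zfp58 had 1.63, 1.55, 0.412 and 1.12. Their log2 ratios at 36 h were 2.11 and 1.25, although MYC-TET1 36 h was below both 24 h libraries in each gene. Zfp691, the last of the 5 largest rises at 36 h, had FPKM 1.35, 1.08, 0.719 and 1.57. They share 21.8%, 48.0% and 0.672% of their 31-mers.

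Among the largest rises at 24 h on the FPKM + 0.1 scale, the first 2 were the near-identical pair. Zfp973 had counts of 0, 150, 187 and 361, and Zfp965 had 31, 207, 111 and 71. Zfp973 was thus listed with no counts in 1 library, but given its shared sequence a count of 0 does not show that its RNA was absent, and no fold is given. Zfp965 had FPKM 0.174, 1.11, 0.702 and 0.37. It reached FPKM 1 in MYC-TET1 24 h alone, so the limit that chose it also favoured a rise at 24 h. Zfp973 and Zfp965 share 90.5% and 97.9% of their 31-mers. Zfp160 was also low in MYC 24 h alone, with FPKM 0.396, 1.32, 1.49 and 1.25.

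Zfp260 and Zfp62 were higher in both 36 h libraries than in both 24 h libraries. Zfp260, with 12 fingers and no KRAB pattern, had FPKM 0.662, 0.659, 3.57 and 4.67 from 286, 305, 1389 and 2185 counts. From 24 h to 36 h its log2 ratio was 2.27 in MYC and 2.65 in MYC-TET1. Zfp62, with 26 fingers, had FPKM 0.888, 0.393, 2.62 and 2.30, and log2 ratios of 1.46 and 2.28 between the times. It was also 2-fold lower in MYC-TET1 than in MYC at 24 h, with a log2 ratio of -1.005 against -0.18 at 36 h. They share 3.30% and 0.0478% of their 31-mers. Time and library cannot be told apart in these data. Zfp959 was the fifth largest fall between the MYC libraries, with FPKM 3.16, 2.27, 1.48 and 2.77.

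The remaining genes past 2-fold were Zfp28, Zfp993, Zfp235, Zfp467 and Zfp707. Their highest FPKM ranged from 1.21 in Zfp28 to 5.65 in Zfp707. Zfp28 was low in MYC-TET1 36 h (FPKM 1.06, 0.86, 1.21 and 0.378), and so was Zfp993 (1.23, 1.38, 1.47 and 0.514), which shares 91.9% of its 31-mers, mainly with Zfp991.

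Shared sequence and large ratios were then set side by side. Of the 24 genes past 2-fold, 11 share 10% or more of their 31-mers and 13 share less, while of all 236 Zfp genes 21.6% share 10 to 50% and 7.63% share 50% or more. Among the 18 genes that share 50% or more, 16.7% passed 2-fold at 36 h, 16.7% at 24 h, 22.2% between the MYC libraries and 16.7% between the MYC-TET1 libraries. Other protein-coding genes with such a share passed in 9.66%, 10.4%, 12.6% and 11.8% of cases. Among the 70 Zfp genes that share under 1%, 4.29% passed at 36 h, 2.86% at 24 h and 5.71% between the MYC libraries, against 1.19%, 1.45% and 2.01% of other genes. Between the MYC-TET1 libraries it was 1.43% of these Zfp genes against 1.66% of other genes. The shares past 2-fold were thus higher in highly shared genes of both kinds. At the low end they were higher in Zfp genes than in other genes in 3 comparisons and lower between the MYC-TET1 libraries. Zfp genes of the low end had a median mean FPKM of 3.12, other genes 7.72.

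**Figure D4:**
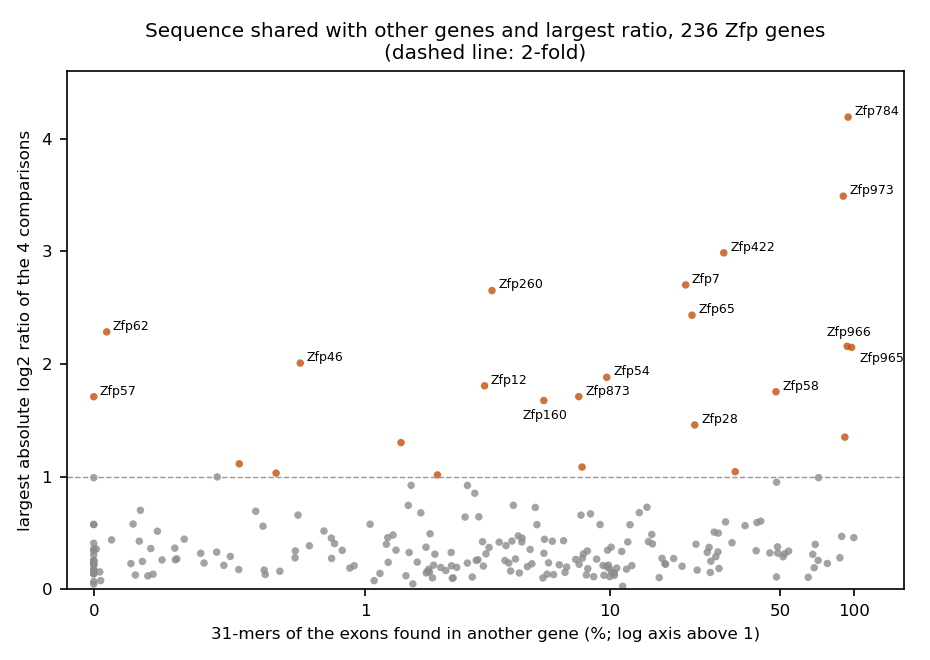
Share of a gene's exonic 31-mers found in another gene (x axis, percent, log axis above 1) against the largest absolute log2 ratio of the 4 comparisons (y axis) for the 236 Zfp genes, with genes past 2-fold in orange. Genes past 2-fold occur across the whole x axis, from Zfp57 at 0% to Zfp965 at 97.9%, and the height of a point with a count of 0 in 1 library, such as Zfp973, is set by the added 0.1.

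The proteins were grouped by what their sequences hold. All 236 genes had a coding transcript in GENCODE M21. A C2H2 pattern was found in all but 7 of them, with a median of 10 fingers and up to 37 in a gene. The 7 without it include Zfp36, whose fingers are of the CCCH type. A pattern for the core of the KRAB domain was found in 107 genes. Of protein-coding Zfp genes with the pattern 58.2% reached FPKM 1, against 70.9% of those without it. At 36 h the median absolute log2 ratio was 0.20 over the 107 genes with the pattern, 11 of which passed 2-fold. It was 0.14 over the 129 without, 4 of which did. Over all genes of any type 4.12% passed either way, and over other protein-coding genes, not matched by level, 1.72%. At 24 h the median was 0.16 with the pattern, with 9 genes past 2-fold, and 0.11 without it, with 1. The background was 3.5% of all genes and 1.66% of other protein-coding genes. Between libraries of the same plasmid the KRAB group also held more genes past 2-fold. In MYC it was 10 against 5, with medians of 0.19 and 0.16. There 5.04% of all genes and 2.73% of other protein-coding genes passed. In MYC-TET1 it was 8 against 4, with medians of 0.15 and 0.14. There 4.15% of all genes and 2.14% of other protein-coding genes passed. The KRAB group also had a lower median mean FPKM (2.40 against 3.07) and a higher median share of 31-mers (7.51% against 2.14%), and what part these played was not tested.

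Among genes known to act on imprints and retroelements, 7 of 9 reached FPKM 1. At 36 h 1 of the 7 was 2-fold lower (Zfp57) and none higher, against 0.863% and 0.96% of protein-coding genes, with a list median of -0.10, against -0.05 over all 236 genes. At 24 h none passed 2-fold, against 0.872% lower and 0.843% higher. A single gene in so short a list shows nothing particular to it. Zfp445, which acts with Zfp57 at imprinted regions, had FPKM 5.29, 5.17, 5.01 and 4.84. Zfp809, which silences retroviral DNA, had 4.95, 5.09, 3.44 and 4.11. The 4 libraries of Zfp445 were within a narrow range, and those of Zfp809 differed mainly by time. Zfp932, Zfp568 and Zfp961 had log2 ratios of -0.10, -0.20 and -0.73 at 36 h, and Zfp959 one of 0.86. Zfp819 stayed under FPKM 1 and Zfp708 had no counts.

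Of 19 silencing partners of KRAB proteins, 18 passed the FPKM limit. None was 2-fold different at either time, which for 18 genes is near the background of 0.96% higher and 0.863% lower at 36 h. Trim28, the scaffold that KRAB domains bind, had FPKM 114, 118, 103 and 113. Setdb1, the methyltransferase it recruits, had FPKM 10.7, 11.9, 11.5 and 11.7. Dnmt3b was the partner that stayed under FPKM 1. The list median was 0.02 at 36 h and -0.01 at 24 h.

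The other lists of known function held no gene past 2-fold in any comparison, with 24 genes past the limit and a background of 4.88% of protein-coding genes, so nothing particular to these lists is read from it. All 10 genes of RNA binding, RNA decay and the ribosome passed the limit, with list medians of -0.09 at 36 h and -0.04 at 24 h. Zfp36, or tristetraprolin, which speeds the decay of messages with AU-rich elements, had FPKM 8.23, 9.14, 8.90 and 9.65. Zfp622, needed for maturation of the large ribosomal subunit, had FPKM 14.2, 14.5, 15.3 and 13.9. Zfp638 had the largest difference between the plasmids in this list at 24 h, with a log2 ratio of -0.46, and Zfp326 at 36 h, with -0.33. Of the pluripotency list 7 of 9 passed, with medians of -0.11 at 36 h and 0.10 at 24 h. Zfp42, or Rex1, a marker of pluripotent cells, had no counts in any library, and Zfp296 stayed under FPKM 1. Zfp281, a repressor of pluripotency genes, had FPKM 16.0, 15.4, 15.2 and 13.8. Of the list of differentiation and signalling 7 of 11 passed, with medians of -0.07 and -0.01, while Zfp423, a factor of fat cell commitment, had no counts and its relative Zfp521 had at most 4.

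Zfp genes are often neighbours, and their levels were followed along the chromosomes. Runs were defined as protein-coding Zfp genes whose starts are at most 250 kb apart on 1 chromosome, with 4 or more genes. There were 22 runs with 165 genes, of which 98, or 59.4%, reached FPKM 1, against 138 of 202 genes, or 68.3%, outside runs. The share within a run ranged from none to all. In the run at chr4:145510759-146198749, 0 of 5 genes reached FPKM 1, and at chr13:67038596-67827002, 5 of 19 did, with mean FPKM from 1.18 to 3.02. At chr17:21383748-22456689, 16 of 18 did, with mean FPKM from 1.17 to 12.8. At chr7:4915217-5053723, 6 of 6 did, from 0.577 to 11.2.

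The other runs with 4 or more genes past the limit were as follows. At chr7:29768552-30169727, 11 of 15 genes reached FPKM 1, with mean FPKM from 1.02 to 10.7. At chr7:24081924-24587641, 7 of 12 did, from 1.15 to 16.0, the highest being Zfp428. At chr17:32765496-33394641, 7 of 10 did, from 1.56 to 3.01. Levels thus varied less within this chromosome 17 run than within the 2 chromosome 7 runs just given. The run at chr7:127233061-127615797 had 7 of 8, from 0.861 to 13.6. The runs at chr6:47819266-48086593 and chr8:69610857-69791178 had 5 of 7 and 4 of 5, with mean FPKM from 2.21 to 8.14 and from 1.25 to 5.10. The 3 runs with the highest median share of 31-mers over all their genes differed in level. The run at chr2:175372436-175931100 had a share of 97.6% and 3 of 4 genes past FPKM 1, and the 2 runs on chromosome 4 had 87.3% with 0 of 5 genes and 74.1% with 2 of 10.

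**Figure D5:**
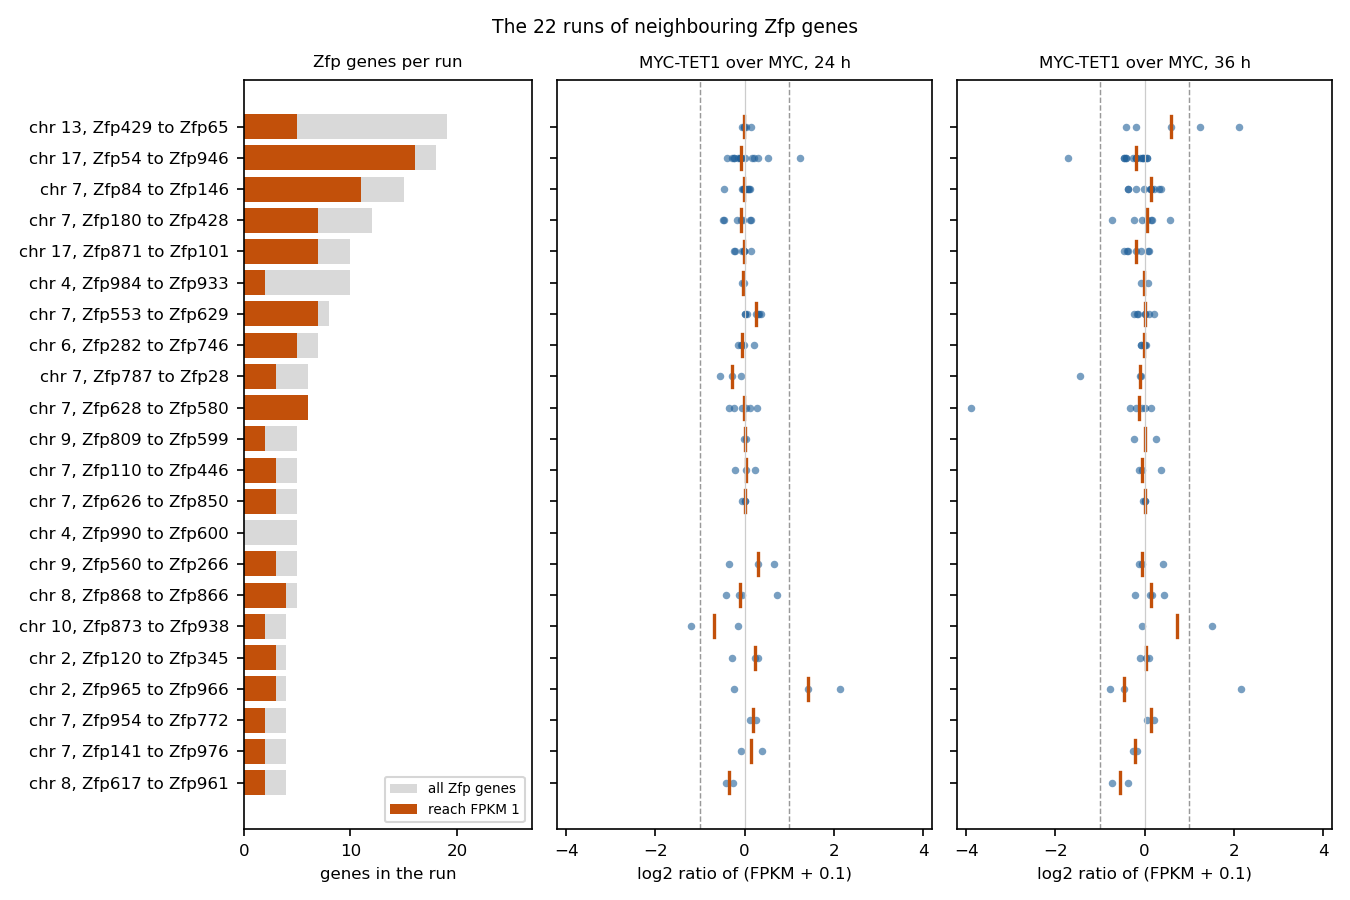
The 22 runs of neighbouring Zfp genes, 1 row each, named by chromosome and by the first and last gene past FPKM 1 (for the run with none, by the first and last gene). The left panel shows how many genes of the run reach FPKM 1 (orange) of all its Zfp genes (grey), and the other panels show the log2 ratio of (FPKM + 0.1), MYC-TET1 over MYC, of each such gene (points) and their median (orange mark) at 24 h and 36 h. Runs differ widely in how many genes reach FPKM 1, while most medians lie near 0.

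Some runs leaned to 1 side, and those given here were picked after the values were seen. In the chromosome 17 run that starts at 21383748, 13 of 16 genes were below 0 at 36 h, with a median of -0.19 and a range from -1.71 to 0.06, against 56.8% of all Zfp genes. At 24 h 10 of 16 were below 0, with a median of -0.08. In MYC-TET1, 15 of 16 were lower at 36 h than at 24 h, against 47.5% of all Zfp genes, a comparison that shares the MYC-TET1 36 h library. In the chromosome 7 run that starts at 127233061, all 7 genes were above 0 at 24 h, with a median of 0.26, where 58.1% of all Zfp genes were below 0. All 7 were also higher at 36 h than at 24 h in MYC, a comparison that shares the MYC 24 h library, where 43.6% of all Zfp genes were lower. Their median between the plasmids was 0.00 at 36 h. Smaller runs leaned as well. Counting only genes past FPKM 1, as in all these counts, 3 of 3 in the run at chr7:6131491-6396915 and 2 of 2 in the run at chr8:71882019-71993792 were below 0 at both times. In the run at chr7:7114690-7209998, 2 of 2 were above 0 at both times. In the run at chr17:32765496-33394641, 6 of 7 were below 0 at 24 h and 5 of 7 at 36 h, and in the run at chr7:4915217-5053723, 5 of 6 were below 0 at 36 h and 3 of 6 at 24 h. In the chromosome 17 run that starts at 21383748 and the chromosome 7 run that starts at 127233061, all but Zfp54 of the genes past the limit stayed under 2-fold at both times. Genes in runs passed 2-fold in 7 of 98 cases at 36 h and 4 at 24 h. Genes outside runs did in 8 of 138 and 6. Over all genes of any type 4.12% passed either way at 36 h and 3.5% at 24 h. Over other protein-coding genes it was 1.72% and 1.66%.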

How the data were processed

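The 4 libraries, 1 per plasmid (MYC, MYC-TET1) and time (24 h, 36 h), were made from total RNA of GC-1 cells with a TruSeq RNA kit that does not mark strand. The authors deposited whole-number read counts per gene, not normalized, and FPKM values they computed from the same reads, in 1 table of 55385 rows. The submitters' processing notes name Bowtie 0.12.2 and the builds mm8 and mm9, with no role given. The counting tool is not given in the sources used here. All 236 genes were found in GENCODE M21 (GRCm38), 199 of them with the same start, end and strand, and positions are printed as the deposited table gives them.

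Log2 ratios used FPKM + 0.1, and genes were kept where the highest of the 4 FPKM values was at least 1. For ratios of counts, 95% intervals were computed by the exact Clopper-Pearson method. Total counts of 60611877 to 72547105 gave a median of 910.5 to 989 counts per Zfp gene, and 227 genes had at least 100 counts in every library. The annotation's exons were cut into 31-mers for shared sequence. Coding transcripts were searched for C2H2 patterns (2 cysteines 2 to 4 residues apart and 2 histidines 3 to 5 residues apart, with 12 residues between) and for a KRAB core pattern. Sequences came from RefSeq and GENCODE.

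The genes named are the 10 most abundant, those 2-fold different at both times, the 5 largest rises and falls at 36 h, at 24 h and between the MYC libraries, those at the FPKM limit, those with 1 library apart, runs of neighbours and the function lists. The remaining genes past 2-fold in any comparison were named after their values were seen. The members and lists were chosen with earlier results of these data known. The alternatives tried were other pseudocounts, filters, scalings, thresholds and bins, and, chosen after seeing the data, 2 limits on shared sequence. Scripts were tested on simulated counts. The tools were pandas 2.3.3, numpy 2.4.6 and scipy 1.17.1 under Python 3.11.15, matplotlib 3.10.9, R 4.3.3 and edgeR 4.0.16, the last for TMM scaling factors only and for no test.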

Additional observations from a re-analysis of the deposited data

Results flagged for a closer look

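Zfp54 and Zfp873 were at least 2-fold different between the plasmids in opposite directions at the 2 times, the only Zfp genes to be so. The log2 ratio of MYC-TET1 over MYC was 1.25 at 24 h and -1.71 at 36 h for Zfp54, and -1.21 at 24 h and 1.51 at 36 h for Zfp873. With 1 library per condition the difference between the times was not tested. Of all protein-coding genes, 0.31% showed such opposite differences.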

How the results depend on the processing

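No replicate block was fitted and no replicate left out, since each condition has 1 library and the labels give no replicate numbers. A fit of plasmid with time as a block, which would treat the times as replicates, was not run. In what follows values are ordered as 36 h plasmid, 24 h plasmid, MYC times and MYC-TET1 times. The 2-fold counts of 15, 10, 15 and 12 became 7, 1, 6 and 4 with a pseudocount of 1. They became 1, 1, 0 and 0 over genes at a mean FPKM of 5 or more. They became 7, 6, 8 and 7 without genes that share 10% or more of 31-mers (a limit chosen after seeing the data). They became 6, 3, 4 and 3 at 4-fold and 26, 20, 25 and 21 at 1.5-fold. The filters on FPKM and on shared sequence also left fewer genes. Without genes that share 10% or more, 70 genes share under 1% and 97 share 1 to 10%. At 36 h, 4.29% and 4.12% of these passed 2-fold, against 1.19% and 1.29% of other genes with such shares, not matched by level. Between the MYC-TET1 libraries the class under 1% went the other way, with 1.43% against 1.66%. Shares of other genes at the other settings are not given here, so no smaller excess is read from these counts. The count of 4 genes the same way at both times became 1 (Zfp7) with a pseudocount of 1, at 4-fold and with genes under a mean FPKM of 5 left out, 2 (Zfp184 and Zfp46) without genes that share 10% or more, 8 at 1.5-fold, and 6 with a pseudocount of 0.01, which added Zfp57 and Zfp784. Without same-strand overlaps Zfp7 was not compared. The median absolute log2 ratios of 0.157, 0.147, 0.174 and 0.143 became 0.121, 0.0952, 0.136 and 0.105 with a pseudocount of 1, and 0.101, 0.0718, 0.123 and 0.0962 at a mean FPKM of 5 or more. Their difference from other genes in the same bins, 0.0295, 0.0149, 0.0108 and -0.00325, became 0.0988, 0.0656, 0.0707 and 0.0748 with no filter, 0.0712, 0.0415 and 0.0434 (the first 3) in bins of read count, and -0.00164 at 36 h at a mean FPKM of 5 or more. With that filter the differences at 24 h and between the MYC libraries also turned, to -0.00874 and -0.00151. At 24 h the difference fell to 0.00619 without genes that share 50% or more of 31-mers and to 0.0062 without those that share 10% or more, and between the MYC libraries to 0.00497 on counts scaled by TMM factors. Between the MYC-TET1 libraries it lay from -0.0124 to -0.000522 in all alternatives but the one with no filter. Without a filter both sets also held genes under FPKM 1, some with a count of 0 in all 4 libraries and so a ratio of 0. The differences with no filter are therefore taken over other sets of genes. The causes were not tested.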

Other observations

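The 2 pairs of libraries that differ in both plasmid and time were not among the comparisons of the design. Between MYC-TET1 36 h and MYC 24 h, 11 of 236 Zfp genes, or 4.66%, were at least 2-fold different, and the same number was found between MYC-TET1 24 h and MYC 36 h. For other protein-coding genes in the same FPKM bins the shares were 3.27% and 3.55%.

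The table's pathway column places 85 of the 236 Zfp genes in the KEGG pathway of herpes simplex virus infection. A count of genes by this annotation therefore counts Zfp genes among them. The number of all genes placed there is not given here, so no enrichment is read from the count.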
